A study of Mus musculus with 4 samples.

Results

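Fibroblasts of the mouse aortic arch that carry transcripts of Penk, Epyc and Fgf10 were examined across 4 single-cell RNA libraries. A cell was chosen if it was a fibroblast, defined by at least 10 unique molecular identifiers (UMIs, counted transcripts) of Dcn, at least 1 of Pdgfra, 0 of Ptprc and at most 1 of Myh11, and if it held at least 2 UMIs of Penk, Epyc and Fgf10 together. Cells with more than 2 UMIs of Pi16 and Dact2, more than 2 of Cilp and Meox1 or more than 1 of Tfap2b and Mab21l2, which mark other fibroblasts of these arches, were left out. The rule gave 256 cells among 6327 fibroblasts, 14148 kept cells and 15599 barcodes. The 13 genes of this rule therefore describe the choice and are not results.

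The study compared atherosclerotic with normocholesterolemic mice, in Nrf2flox/flox controls and in Nrf2Cdh5tKO mice. In the latter a Cre transgene under the Cdh5 promoter removes exon 5 of the floxed Nrf2 gene (Nfe2l2), which leaves Nrf2 without transcriptional activity in cells with a history of Cdh5 expression; the controls are homozygous for the floxed allele. Aortic arches with their branches were pooled from 4 normocholesterolemic Nrf2flox/flox, 4 normocholesterolemic Nrf2Cdh5tKO, 3 atherosclerotic Nrf2flox/flox and 3 atherosclerotic Nrf2Cdh5tKO males, all 3 months old at the start. Atherosclerosis was induced with a single tail-vein injection and high-fat diet for 21 weeks, whereas normocholesterolemic mice received saline and standard diet. Viable DAPI-negative cells were sorted after enzymatic digestion and sequenced as 1 library per group, so that no group has a replicate, no test between groups was made, and diet, injection, pool and library cannot be told apart. All intervals are 95% counting intervals and cover counting error only. Values below are listed in the order of the 4 groups just given. The total counts were 98754487, 43717402, 12276546 and 24184211 UMIs.

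Nfe2l2 was not lower in the fibroblasts of the libraries labelled Nrf2Cdh5tKO. Its level in the chosen cells, in counts per 1000000 UMIs of those cells (CPM), was 162, 167, 81.3 and 235, and in the other fibroblasts 192, 205, 206 and 245. In 2431 leukocytes it was 306, 294, 299 and 409.9 CPM, and in the 45, 29, 19 and 16 cells with at least 2 UMIs of Cdh5 it was 149, 394, 183 and 317 CPM, from 36, 84, 24 and 42 UMIs. In none of these sets of cells was it lower under the Nrf2Cdh5tKO label in both diets, and these counts do not by themselves show the deletion that the label names. In GENCODE M21 the main transcript, Nfe2l2-201, ends with exon 5 (chr2:75675513-75677184, minus strand). These libraries were counted from that end, and whether the floxed allele still gives countable transcripts after its loss was not tested. Cdh5, whose promoter drives Cre, was present as 2 UMIs in 1 of the 256 chosen cells, and whether the floxed exon was removed in fibroblasts was not measured.

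Penk encodes proenkephalin, the precursor of the enkephalin opioid peptides. Epyc encodes epiphycan, a small leucine-rich proteoglycan known from cartilage, and Fgf10 a fibroblast growth factor that stromal cells send to epithelium. Fibroblasts of the adventitia, the outer coat of the artery, build its collagen and elastic fibres, and those with Pi16 and Dpp4 are often described as a progenitor-like state found in many tissues. In the GRCm38 assembly Penk lies at chr4:4133531-4138819 on the minus strand, Epyc at chr10:97644068-97682454 and Fgf10 at chr13:118669791-118792115, both on the plus strand.

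Penk carried most of the selection. It was detected in 245 of the 256 chosen cells (95.7%), Fgf10 in 92 (35.9%) and Epyc in 55 (21.5%), and Penk made up 82.1% of the UMIs of the 3 genes. Penk alone was found in 127 cells, all 3 genes in 16, and 11 cells had no Penk. Penk stood at 852, 586, 468 and 573 CPM in the chosen cells of the 4 libraries and at 122, 87.9, 116 and 107 CPM in the other fibroblasts. Epyc measured 87.1, 54.2, 50.8 and 94.2 CPM against 43.8, 25, 18.3 and 14.9, and Fgf10 76.2, 103, 40.7 and 130.2 against 17.4, 10.3, 19.7 and 18.9. Transcripts of the 3 genes were seldom found in smooth muscle cells and leukocytes. At least 2 UMIs of them occurred in 30.0% of all fibroblasts, in 0.927% of 1726 smooth muscle cells (at least 5 UMIs of Myh11) and in 0.0823% of 2431 leukocytes (at least 1 of Ptprc). Of the 7821 kept cells outside the fibroblasts 332 (4.24%) held as many, 314 of them among the 3555 cells that also fell outside the smooth muscle, leukocyte and Cdh5 sets (8.83%). Median depth in the 4 libraries ranged from 11587 to 16879 UMIs in fibroblasts, 11710 to 16267 in smooth muscle cells and 7012 to 8402 in leukocytes. After thinning every cell to 5000 UMIs, which left out 22 chosen cells, 596 other fibroblasts, 116 smooth muscle cells and 750 leukocytes, Penk was detected in 87.2% of the chosen cells, 22.0% of the other fibroblasts, 1.93% of smooth muscle cells and 0.714% of leukocytes. Unthinned, the same shares were 95.7%, 32.8%, 5.10% and 1.69%.

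The exclusion of Pi16 cells removed most Penk, Epyc and Fgf10 cells. Of 1895 fibroblasts with at least 2 UMIs of the 3 genes, 1639 (86.5%) failed another condition, 1609 of them because of Pi16 and Dact2 and 1416 through these 2 genes alone. More than 2 UMIs of Pi16 and Dact2 were present in 83.6% of all fibroblasts, and also in 8.23% of smooth muscle cells and 6.21% of leukocytes, and the part of free RNA in them was not tested. In the normocholesterolemic libraries the 3 genes had nearly the same frequency within and outside the Pi16 gate: 32.5% and 30.9% of the fibroblasts outside the other gates held at least 2 UMIs, beside 32.3% and 30.8% of those in the Pi16 gate alone. In the atherosclerotic libraries the shares were 18.8% and 16.9% outside, beside 35.1% and 23.6% within. A threshold of 2 UMIs depends on depth, which was not matched between these sets. Over the 4 libraries, the 553 cells outside the gates with no UMI of the 3 genes had a median of 7634 UMIs. All fibroblasts that were not chosen had medians of 12655, 16928, 14377 and 11583 UMIs. The part of depth in these shares was not tested. The chosen cells are thus the minority of Penk, Epyc and Fgf10 cells that held little Pi16, which stood at 80.4, 71.4, 71.2 and 66.5 CPM in them against 3338, 3379.7, 3791 and 2875 in the other fibroblasts.

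The chosen cells carried fibroblast markers in every library. Col1a1, which the rule did not use, measured 1762, 2383, 1383 and 1928 CPM in them and 1750.0, 2317, 1714 and 1348 in the other fibroblasts. The 7 leukocyte markers summed to 269, 172, 122 and 379.5 CPM in the chosen cells and 257, 172, 232 and 339.8 in the others, with Lyz2 or Cd74 the most abundant and Ptprc at 0 by choice. The 6 smooth muscle markers summed to 333, 189.5, 234 and 504 CPM against 495, 323, 238 and 538, led by Acta2 or Tagln, and the 6 endothelial markers to 18.9, 9.85, 40.7 and 5.54 against 44.6, 31.6, 21.9 and 22.8, with Tie1 at 0 in all 4 libraries. The 5 pericyte markers summed to 263, 359, 376 and 850.4 CPM against 345, 292, 394 and 473. Abcc9 led that list in each library, while Rgs5, a defining pericyte gene, was at 0 in both atherosclerotic libraries. The 7 perineurial and endoneurial markers summed to 165, 236, 224 and 152 against 136, 151, 128 and 115 CPM with Sox9 the highest. The 6 Schwann cell markers summed to 34.1, 27.1, 40.7 and 41.6 CPM, against 24.9, 25.5, 33.1 and 31.4 in the other fibroblasts, led by S100b or Cdh19. Sox10 was at 0 in the chosen cells of each library, and also in the other fibroblasts of all but the first. Mesothelial markers summed to 5.68, 4.92, 0 and 0 CPM and cardiomyocyte markers to 3.31, 9.85, 0 and 2.77. Scrublet called 6 of the 256 chosen cells doublets (2.34%; 4, 0, 1 and 1 in the 4 libraries), against 24 of the other fibroblasts (0.395%). The chosen cells were thus called more often, and with the called cells removed all 27 higher and 40 of the 41 lower genes described below remained. Between 2 and 10 barcodes were shared by each pair of libraries, 32 in all.

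The chosen cells were a small part of the fibroblasts, and most of them came from the first library. There were 185 of 3568 fibroblasts in the normocholesterolemic Nrf2flox/flox library (5.18%, exact Clopper-Pearson interval 4.48% to 5.96%) and 29 of 1396 in the normocholesterolemic library labelled Nrf2Cdh5tKO (2.08%, 1.40% to 2.97%). In the atherosclerotic libraries 9 of 408 fibroblasts (2.21%, 1.01% to 4.15%) and 33 of 955 (3.46%, 2.39% to 4.82%) were chosen. The first library thus gave 72.3% of all chosen cells. The interval of the normocholesterolemic Nrf2flox/flox library lay above those of the second and the third library and overlapped that of the fourth. The share of fibroblasts in the Pi16 gate, which bounds it, was 80.9%, 92.9%, 87.0% and 78.7%, and the share in the Cilp and Meox1 gate 8.38%, 26.4%, 5.39% and 4.82%. With the denominator limited to the 907 fibroblasts outside these gates and the Tfap2b gate, the normocholesterolemic libraries stood at 32.5% and 30.9%. Median depth was 11565, 13238, 10352 and 11611 UMIs in the chosen cells and 12655, 16928, 14377 and 11583 in the other fibroblasts.

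**Figure D1:**
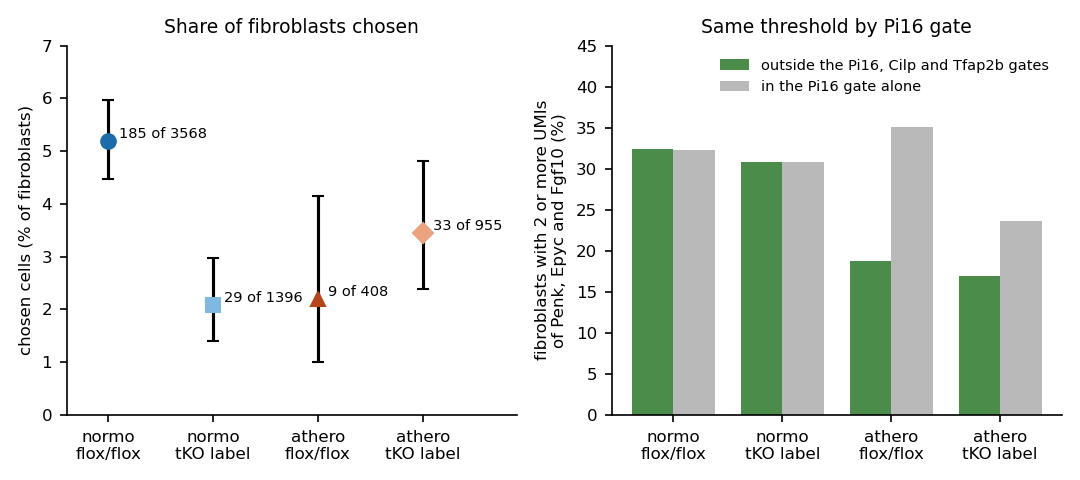
Left, chosen cells as a percentage of the fibroblasts of each library with exact 95% counting intervals, and right, the percentage of fibroblasts with 2 or more UMIs of Penk, Epyc and Fgf10 outside the Pi16, Cilp and Tfap2b gates (green) or in the Pi16 gate alone (grey). The first library stands highest at 5.18%, while outside the gates both normocholesterolemic libraries lie near each other at 32.5% and 30.9%.

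Genes outside the rule were also read in cells just inside and just outside its threshold of 2 UMIs. Outside the other gates, 553 fibroblasts had no UMI of the 3 genes, 98 had 1, 47 had 2, 45 had 3 or 4, 68 had 5 to 9 and 96 had 10 or more. Over the 4 libraries together, Sfrp1, a secreted Wnt antagonist, measured 97.1 CPM in cells with no gate UMI, 192 with 1, 450.1 with 2 and 1013 with 10 or more. Cxcl14, a chemokine, measured 5.66 CPM with none, 1.08 with 1, 141 with 2 and 501 with 10 or more, and Igfbp3, which binds insulin-like growth factors, 37.9, 46.3, 86.7 and 330.4 CPM. These pooled levels follow the first library, which held 31 of the 47 cells with 2 gate UMIs. The other libraries, with 6, 3 and 7 such cells, did not share the step from 1 to 2 in each gene. Sfrp1 went from 173, 341, 383 and 107 CPM with 1 gate UMI to 534, 304, 338 and 249.5 with 2 in the 4 libraries, and so was lower with 2 in the second and the third library. Igfbp3 was at 0 with 2 gate UMIs in all but the first library, and Cxcl14 in both atherosclerotic libraries. In the first library Cxcl14 was highest with 5 to 9, at 574 CPM. Cells with 10 or more gate UMIs were deeper, with a median of 13734 UMIs against 7578 in cells with 2 and 7634 in cells with none, and the part of depth in these levels was not tested. Apod, a lipid-binding lipocalin, did not follow this order: it measured 163 CPM with no gate UMI, 67.9 with 1, 1250 with 2 and 540.3 with 10 or more. The value at 2 came from the first library, at 1822 CPM, whereas the others gave 43.5, 37.5 and 403.

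**Figure D2:**
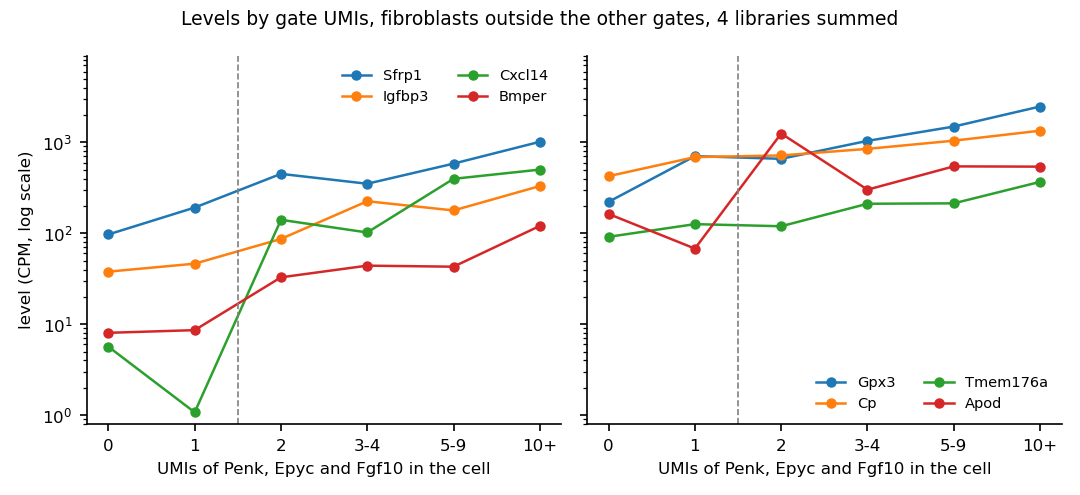
Level in CPM (log scale) of 8 genes in fibroblasts outside the Pi16, Cilp and Tfap2b gates by the number of Penk, Epyc and Fgf10 UMIs in the cell, with the 4 libraries summed and the dashed line at the threshold between 1 and 2 UMIs. Sfrp1 goes from 97.1 CPM with no gate UMI to 1013 CPM with 10 or more, and the peak of Apod at 2 UMIs is that of the first library (1822 CPM, against 43.5, 37.5 and 403 in the others).

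Against the other fibroblasts of the same library, 27 of 3747 genes were at least 2-fold higher in the chosen cells of all 4 libraries (0.721%) and 41 were at least 2-fold lower (1.09%). These genes had at least 5 UMIs seen or expected in the chosen cells of every library, and the median log2 ratio of all tested genes was -0.03. A gene could thus pass through the chosen cells alone, and 16 of the 27 higher genes did so in at least 1 library, where fewer than 5 UMIs were expected from the other fibroblasts; for these a high ratio there follows in part from the filter. Igfbp3, Bmper and Alkal2 passed so in 3 libraries, and Cxcl14, Rspo3, Cntfr, Mme and Nid2 in 2. Among the 2988 genes with at least 5 UMIs expected in every library, 11 were higher (0.368%) and 41 lower (1.37%). The 11 were Apod, Apoe, Col15a1, Col4a1, Cp, Gdf10, Gpx3, Hsd11b1, Lpl, Steap4 and Tmem176b. A lower gene has more UMIs expected than seen, so all 41 pass this filter by construction. Of these, 27 had passed in at least 1 library only through the UMIs expected from the other fibroblasts. For the 27 a low ratio there follows in part from the filter. The 25 higher genes with the largest smallest ratio are described by role below. Several encode secreted signals. Igfbp3 (chr11:7206086-7213923, minus strand) measured 274, 226, 183 and 77.6 CPM in the chosen cells and 25.7, 8.37, 8.83 and 4.84 in the others. It was higher in each library, by log2 ratios of 3.40, 4.57, 3.76 and 3.66, and its UMIs came from 56, 8, 1 and 2 cells. Cxcl14 (chr13:56288643-56296551, minus strand) measured 422, 310.2, 549 and 44.3 CPM against 10.8, 15.1, 0 and 4.30. Its log2 ratio was 5.26, 4.26 and 3.01 in the 3 libraries where the other fibroblasts had any UMI. In the atherosclerotic Nrf2flox/flox library 54 UMIs came from 2 cells, and in the one labelled atherosclerotic Nrf2Cdh5tKO all 16 came from 1 cell, so that the value there rests on 1 or 2 cells. Rspo3, an enhancer of Wnt signalling, measured 57.3, 96.0, 112 and 139 CPM against 19.4, 9.67, 14.6 and 25, and Alkal2, a ligand of the ALK receptor, 74.8, 44.3, 50.8 and 19.4 against 12.5, 8.63, 4.58 and 3.66. Of the BMP family and its binding proteins, Gdf10, a ligand also known as BMP3b, measured 442, 551, 905 and 856 against 183, 214, 343 and 262 CPM, and Bmper, a secreted BMP modulator, 84.2, 86.2, 91.5 and 19.4 against 10.0, 8.59, 11.5 and 6.67.

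Sfrp1 was uneven across the libraries. It measured 687, 1280.1, 325 and 438 CPM in the chosen cells and 219, 315, 319 and 218 in the others, with log2 ratios of 1.65, 2.02, 0.03 and 1.0. With a ratio of 0.03 in the 9 chosen cells of the atherosclerotic Nrf2flox/flox library, the gene was not among those called. Sfrp1 was detected in 77.0% of the chosen cells, 43.0% of the other fibroblasts, 11.5% of smooth muscle cells and 2.96% of leukocytes. Bmper was detected in 35.5% and 8.52% of the chosen and other fibroblasts, against 0.521% of smooth muscle cells, Igfbp3 in 26.2% and 4.38% against 1.10%, and Cxcl14 in 18.8% and 1.38% against 0.521%. With all cells thinned to 5000 UMIs the shares in chosen and other fibroblasts were 68.4% and 33.4% for Sfrp1, 25.6% and 3.95% for Bmper, 21.8% and 3.11% for Igfbp3 and 19.2% and 1.02% for Cxcl14. Each of these genes was thus found in more of the chosen cells at equal depth, though most of them held no UMI of Igfbp3 or Cxcl14, which does not limit how many express these genes.

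Other higher genes act on metals, lipids or peroxides. Cp, the copper-carrying ferroxidase ceruloplasmin, measured 1088, 1204, 966 and 1116 CPM against 319.7, 305, 288 and 307, with log2 ratios of 1.77, 1.98, 1.73 and 1.86, and was detected in 93.0% of the chosen cells. It differed least between libraries of the genes named here, with an SD of 0.11 on the log2 scale over the 4 libraries. Steap4, a metalloreductase, measured 259, 489.9, 285 and 216 CPM against 58.0, 54.8, 116 and 84.1, and Gpx3, a secreted glutathione peroxidase, 1879, 1991, 895 and 975 against 515, 539.5, 320.2 and 392. Apoe, the apolipoprotein of remnant particles, measured 7175, 5625, 7157 and 5039 CPM against 2621, 2266, 2053 and 1928. Lpl, lipoprotein lipase, measured 901, 1191, 1911 and 427 against 198, 223, 232 and 199, and Hsd11b1, which regenerates active glucocorticoid, 194, 295, 468 and 296 against 80.2, 81.8, 86.4 and 126. That the chosen cells stood above the other fibroblasts in all 4 libraries for these 6 genes follows from the rule that named them. With the largest cell left out, the smallest log2 ratio was 0.71 for Gpx3, 0.88 for Lpl and 0.92 for Steap4. It was 1.51 for Cp, 1.21 for Apoe and 1.07 for Hsd11b1. Apod also stood higher, at 639, 286, 2033 and 402 CPM against 91.4, 58.6, 146 and 139.7, but 67.5% of its 1812 UMIs in the chosen cells came from 10 cells and 478 from 1 cell.

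The remaining higher genes encode basement membrane, surface and signalling proteins. Col4a1, a chain of basement membrane collagen, measured 536, 916, 732 and 446 CPM against 239, 407, 191 and 212, and Col15a1, a collagen at the basement membrane border, 363, 724, 366 and 255 against 123, 351, 70.4 and 85.2. Nid2, nidogen 2, which links laminin to that collagen, measured 43.1, 68.9, 61.0 and 19.4 against 9.89, 14.4, 5.77 and 6.40. Its value in the atherosclerotic Nrf2flox/flox library rested on 1 cell, without which the log2 ratio there was -1.01. Tmem176a was higher by log2 ratios of 2.52, 3.18, 3.11 and 2.32 (278, 194, 346 and 283 CPM against 48.2, 20.4, 35.6 and 55.4), and Tmem176b by 2.41, 2.94, 1.88 and 1.68. These membrane proteins are encoded side by side at chr6:48840919-48847071 and chr6:48833818-48841496 on opposite strands, their spans overlap, and how shared reads were assigned is not given in the sources used here. The log2 ratio of Cntfr, the receptor of ciliary neurotrophic factor, was 1.82, 1.73, 1.58 and 1.58, and that of S1pr3, a receptor of sphingosine-1-phosphate, 2.02, 1.37, 1.55 and 1.83. Slc1a3, a glutamate transporter, gave 1.45, 1.37, 1.98 and 1.11, and Lsamp, an adhesion protein known from the limbic system, 1.85, 1.64, 1.35 and 1.74. The signalling genes Gnai1, an inhibitory G protein subunit, and Eps8, an actin regulator, ranged from 1.5 to 2.39 and from 1.23 to 1.82, and the transcript AW112010 from 1.21 to 2.94. The ratios of these surface and signalling genes were above 1 in every library by the rule that named them.

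**Figure D3:**
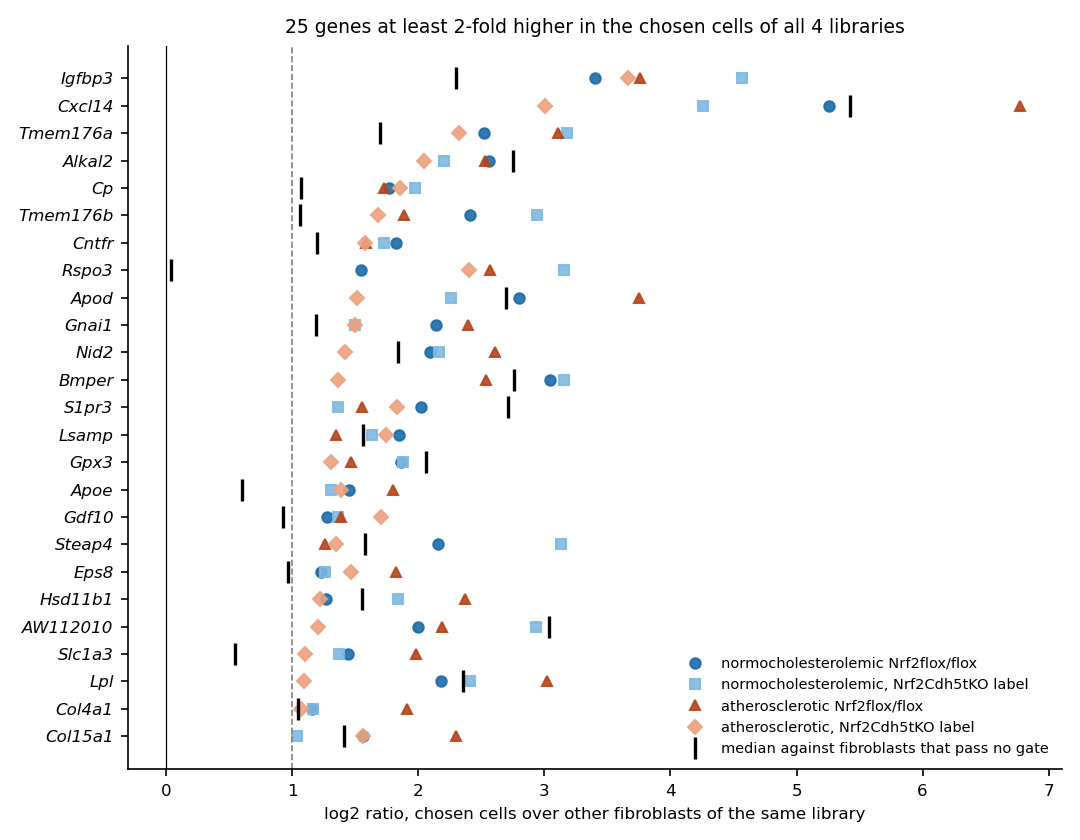
Log2 ratio of CPM in the chosen cells over the other fibroblasts of the same library for the 25 genes named as higher, with 1 symbol for each of the 4 libraries and the dashed line at a 2-fold ratio. The black bars give the median over the libraries of the ratio against fibroblasts that pass no gate, which for Rspo3 lies at 0.04 and for Apoe at 0.60, and the value of Cxcl14 for the atherosclerotic Nrf2flox/flox library depends on the 0.5 UMI added, since its other fibroblasts had none.

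Few cells decided many of these genes. When the cell with the most UMIs of a gene was left out of each library, 9 of the 27 higher genes were still at least 2-fold higher in all 4 libraries (AW112010, Apoe, Cntfr, Cp, Eps8, Hsd11b1, Rspo3, Tmem176a and Tmem176b), and 23 were above 0 in all 4. The other 4 were Igfbp3, Mme and Nid2, which went to log2 ratios of -1.37, -0.33 and -1.01 in the atherosclerotic Nrf2flox/flox library, and Cxcl14, which went to -2.0 in the library labelled atherosclerotic Nrf2Cdh5tKO. Leaving out such a cell can only lower the chosen level, so it says nothing of the lower genes. Without the atherosclerotic Nrf2flox/flox library, with its 9 chosen cells, 7452 genes could be tested, of which 63 were higher (0.845%) and 83 lower (1.11%), and without the library labelled atherosclerotic Nrf2Cdh5tKO 45 of 3757 were higher. After thinning to 5000 UMIs 16 of the 27 higher and 27 of the 41 lower genes still passed the filter, and 12 and 10 of these were called.

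Dpp4, Sema3c and Wisp2 were among the 41 lower genes. Dpp4, a surface peptidase of progenitor-like fibroblasts, measured 3.31, 0, 10.2 and 0 CPM in the chosen cells and 58.1, 60.3, 105 and 79.4 in the others, and rested on 8 UMIs in 3 chosen cells. Sema3c, a secreted guidance protein, measured 32.7, 36.9, 0 and 30.5 CPM against 205, 267, 429.7 and 315. Cd55, which restrains complement, measured 52.5, 46.8, 40.7 and 24.9 against 205, 277, 310.4 and 274, and Anxa3, an annexin, 97.5, 51.7, 50.8 and 13.9 against 403, 325, 392 and 343. Ackr3, a scavenger receptor of Cxcl12, measured 132, 108, 122 and 80.3 CPM against 613, 606, 678 and 539, and Has1, a hyaluronan synthase, 128, 29.5, 10.2 and 58.2 against 514, 509.7, 335 and 473. All of these stood lower in the 4 libraries by the rule that named them. Wisp2, a secreted CCN family protein, measured 18.5, 66.5, 10.2 and 63.7 CPM against 242, 403, 274 and 261. The other lower genes named by the rule were Cmah, Efhd1, Ptgs1, the cyclooxygenase 1 gene, Pla1a, a phospholipase, Dbn1, the actin-binding drebrin, Aldh1a3, which makes retinoic acid, Lrrn4cl and the adhesion receptor Adgrd1. Each of these 8 had a log2 ratio of -1.73 or lower in every library.

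The chosen cells were also set against 2 narrower sets of fibroblasts, of which the first shares their low Pi16 and the second their Penk, Epyc and Fgf10. Of the 27 higher genes, 15 were also at least 2-fold higher in all 4 libraries against the 651 fibroblasts that pass no gate, and 15 against the 1416 fibroblasts with at least 2 UMIs of the 3 genes and high Pi16, with 7 genes in both sets. Of the 41 lower genes, 36 were at least 2-fold lower against the Pi16-high Penk, Epyc and Fgf10 cells. Against the fibroblasts without any gate 20 of the 41 passed the filter on low counts, and 3 were at least 2-fold lower. In all 4 libraries 16 of the 41 lay below that set, by any amount. Rspo3 measured 56.8, 92.0, 153 and 98.7 CPM in the first set and 16.2, 15.7, 3.96 and 23.9 in the second, beside 57.3, 96.0, 112 and 139 in the chosen cells. The chosen cells were thus above the second set in each library, and above the first in 3 of 4 but by less than 5 CPM in the 2 normocholesterolemic ones. Tmem176a measured 110.2, 59.4, 102 and 84.8 CPM in the first set and 51.2, 21.4, 22.8 and 62.7 in the second, below the chosen cells in both. Sfrp1 measured 88.6, 269, 200.4 and 70.9 CPM in the first set and 420.5, 621, 560.0 and 571 in the second. The chosen cells, at 687, 1280.1, 325 and 438 CPM, were above the second set in both normocholesterolemic libraries. They were below it in both atherosclerotic ones. Bmper measured 8.64, 17.0, 3.64 and 3.08 CPM in the first set and 19.7, 18.5, 20.3 and 19.0 in the second. The second set came near the chosen cells, at 19.4 CPM, in the library labelled atherosclerotic Nrf2Cdh5tKO. Dpp4 measured 11.4, 52.3, 3.64 and 4.63 CPM in the first set and 75.0, 107, 151 and 106 in the second, and Wisp2 252, 167, 339 and 231 in the first and 74.0, 126, 26.7 and 78.4 in the second. Of the 3 sets, the chosen cells had the least Wisp2 in each library. The comparisons share the chosen cells, and no difference between them was tested.

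**Figure D4:**
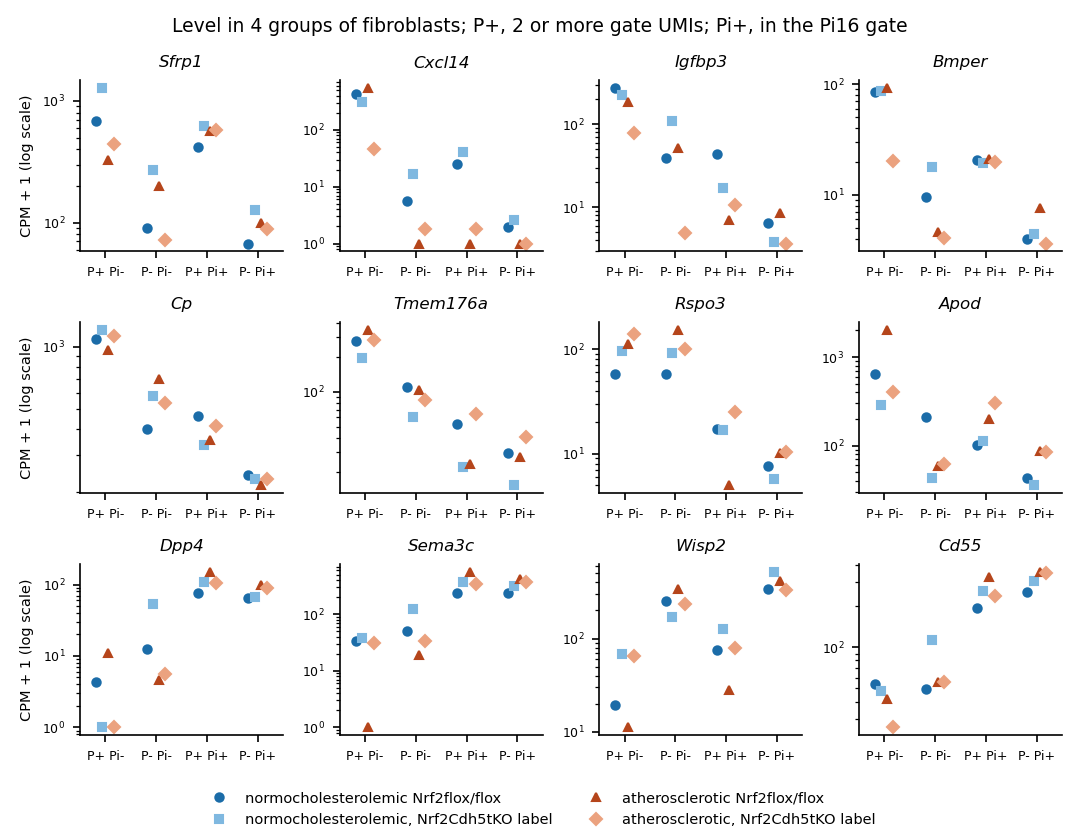
Level (CPM + 1, log scale) of 12 genes in 4 sets of fibroblasts in each library, with at least 2 UMIs of Penk, Epyc and Fgf10 (P+) or fewer (P-) and inside (Pi+) or outside (Pi-) the Pi16 gate, where the chosen cells are P+ Pi-. Rspo3 is high in both Pi- sets (57.3 to 139 CPM in the chosen cells), and Dpp4 and Cd55 in both Pi+ sets. Igfbp3 and Cxcl14 are highest in the chosen cells of all 4 libraries. Igfbp3 rests on 1 cell in the atherosclerotic Nrf2flox/flox library, and Cxcl14 on 1 cell in the library labelled atherosclerotic Nrf2Cdh5tKO. With the largest cell left out, their log2 ratios over the other fibroblasts there were -1.37 and -2.0.

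Gene lists were described by role, beside the 0.721% of all tested genes that were higher, the 1.09% that were lower and their median of -0.03. A single call in a list of this length already lies above those shares, and nothing particular to a list is read from it. Of the 19 universal and progenitor fibroblast genes, 12 passed the filter on low counts, 0 were higher and 5 were lower (Dpp4, Cd55, Sema3c, Anxa3 and Cd248), with a median log2 ratio of -1.48 and 11 below 0 in all 4 libraries. Several of these genes mark the Pi16 fibroblasts, so the exclusion of those cells bears on this direction. Of 34 elastic fibre and basement membrane genes measured, 1 was higher (Nid2) and 6 were lower, with a median of -0.34. The lower members were Fbn1 and Mfap5, which build microfibrils (281, 399, 234 and 205 CPM against 713, 992, 977 and 834 for Fbn1), Emilin2, the fibronectin gene Fn1 and the hyaluronan synthases Has1 and Has2. Sparcl1, a matrix protein of the same list, was 2-fold higher in 3 of the 4 libraries and measured 455, 731, 986 and 310.3 CPM against 66.4, 396, 25.3 and 55.9. Of 17 collagen chains 2 were higher, Col4a1 and Col15a1, and 0 lower, with a median of 0.27. Col5a3 gave log2 ratios of 2.42, 2.51, 2.42 and 0.51 and Col6a3 of 1.26, 1.71, 1.08 and 0.85, short of the rule in the last library.

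Signalling lists were mixed. Of 19 BMP and TGF-β genes 2 were higher (Gdf10 and Bmper) and 0 lower, with a median of -0.34, and the activin-binding follistatin gene Fst gave 0.76, 1.59, 0.54 and 0.95. Of 8 Wnt genes 1 was higher (Rspo3) and 1 lower, the antagonist Sfrp2, at 364, 194, 214 and 753 CPM against 1228, 1027, 1896 and 2129. Of 21 chemokine, cytokine and complement genes 1 was higher (Cxcl14) and 0 lower, with a median of 0.21. Of that list, Ccl11, the eosinophil attractant eotaxin, measured 1530.4, 1332, 935 and 693 CPM against 347, 209, 420.0 and 372, and Cxcl12 1027, 1617, 1474 and 2028 against 402, 296, 919 and 802. Both lay above the other fibroblasts in each library without reaching 2-fold in all 4. Of 7 FGF receptor and feedback genes 0 were higher and 1 lower (Flrt2), and the feedback inhibitor Spry1 gave 1.04, 0.77, 2.09 and 0.64. The FGF ligands that passed the filter, Fgf2 and Fgf7, gave -0.64, -0.85, -0.24 and -1.84 and 0.65, 0.86, 0.27 and 0.83. Of the opioid peptide genes with their processing enzymes and receptors, 5 passed and 1 was higher, Mme, which encodes neprilysin, an enzyme that degrades enkephalins (58.7, 78.8, 122 and 30.5 CPM against 28.6, 19.3, 17.3 and 10.8). It is one of the genes that passed the filter through the chosen cells in some library and whose ratio in the 9 cells rested on 1 cell, and it was called in 13 of the 20 settings. Cpe, an enzyme of peptide hormone processing, gave -0.49, -0.12, 0.86 and 0.75, and Pam, which amidates peptides, -1.38, -1.26, 0.18 and -0.49. Neither processing enzyme stood higher in the chosen cells of every library.

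No gene of 9 small leucine-rich proteoglycans, 12 metalloproteinases and inhibitors, 17 transcription factors of position and lineage, 18 immediate early and heat shock genes, 8 Nrf2 genes, 75 ribosomal protein genes or 12 mitochondrial genes met the rule in either direction. With 0.721% and 1.09% of all genes called, few or no calls would fall in lists of such length in any case. The interferon-stimulated genes gave 0 higher and 1 lower of 6 (Ifi27l2a), the retinoid genes 0 higher and 1 lower of 6 (Aldh1a3), and the nerve growth and guidance genes 0 higher and 1 lower of 8 (Sema3c). The early response genes Fos and Jun measured 5152, 4387, 4738 and 5252 and 3321, 3946, 3853 and 3596 CPM in the chosen cells against 4149.6, 3993, 4999 and 4835 and 2308, 2394, 2754 and 2557. Their log2 ratios ranged from -0.08 to 0.31 and 0.48 to 0.72.

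The chosen cells were not uniform. In the first library, cells with Epyc and Fgf10 (15), with Epyc without Fgf10 (29), with Fgf10 without Epyc (53) and with Penk alone (88) measured 536, 313, 665 and 255 CPM of Cxcl14, 879, 97.6, 193 and 274 CPM of Igfbp3 and 586, 912, 753 and 587 CPM of Sfrp1. Over the 4 libraries together (18, 37, 74 and 127 cells) the levels were 636, 316, 566 and 185 CPM for Cxcl14, 706, 134, 141 and 267 for Igfbp3 and 921, 938, 850.0 and 543 for Sfrp1. Single cells set some of these levels: 137 of the 159 Igfbp3 UMIs in the 15 cells of the first library lay in 1 cell, without which the level was 133 CPM, and 69 of the 93 Cxcl14 UMIs in the 29 cells in another, without which it was 83.8 CPM. Cxcl14 and Bmper were often found in the same cells: Bmper was detected in 70.8% of the 48 cells with Cxcl14 and in 27.4% of those without, and in the first library in 66.7% and 32.2%. Igfbp3 and Cxcl14 were not, since Cxcl14 was found in 16.4% of the 67 cells with Igfbp3 and in 19.6% of those without. Igfbp3 occurred in 33.0% of the cells with Sfrp1 and in 3.39% of those without. Median depth was 12580 UMIs in cells with Igfbp3, 12900.5 in cells with Cxcl14 and 12611 in cells with Bmper.

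The chosen cells lay near each other in expression space also without the genes that chose them. Among the 20 nearest neighbours of a chosen cell within its library, over 30 principal components of 2000 variable genes with the 13 rule genes left out, 34.6% were chosen cells in the first library, 23.3% in the second, 6.67% in the third and 13.5% in the fourth. Their shares of the fibroblasts were 5.18%, 2.08%, 2.21% and 3.46%, so the neighbour shares were 6.67, 11.2, 3.02 and 3.9 times as large. Fibroblasts with the 3 genes and high Pi16 made up 35.7%, 53.6%, 37.8% and 33.2% of the neighbours, against 23.8%, 20.3%, 28.7% and 17.4% of the fibroblasts. Fibroblasts without any gate made up 7.73%, 1.55%, 5.00% and 16.5% of the neighbours, against 10.8%, 4.66%, 9.56% and 17.0% of the fibroblasts. Those in the Pi16 gate alone made up 16.1%, 15.3%, 40.6% and 34.2%, against 49.9%, 45.5%, 52.9% and 56.2%. Both sets with the 3 genes were thus above their share of the fibroblasts in each library, and those in the Pi16 gate alone below it. Fibroblasts without any gate were below theirs in the first 3 libraries and close to it in the last. In the third library, with 9 chosen cells, the ratio was 1.51 when 50 neighbours were taken.

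A small set of genes differed between the diets in the chosen cells. Atherosclerotic libraries were compared with normocholesterolemic ones for each genotype label, and a gene was called if it changed at least 2-fold in the same direction in both pairs with counting intervals that left out 0. Of 5065 genes with at least 20 UMIs in each pair, 36 were higher (0.711%) and 26 lower (0.513%) in the atherosclerotic libraries. In the other fibroblasts the same rule called 72 higher and 127 lower of 13081, which included 2 of the 36 and 4 of the 26. The chosen cells of the atherosclerotic Nrf2flox/flox library were 9, with 98360 UMIs, so that a single cell could decide a value. Without it, the remaining pair alone gave 185 higher (3.65%) and 224 lower (4.41%) of 5075 genes, where a gene no longer has to change in both pairs. With the largest cell of each gene left out 19 of the 36 and 22 of the 26 remained. Leaving out 1 cell tends to lower a level more among 9 cells than in a larger set, so it says little of the lower genes. After thinning to 5000 UMIs 26 of the 36 and 23 of the 26 still passed the filter, and 9 and 4 of these were called.

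Matrix proteins were among the genes higher in the atherosclerotic libraries. Mgp, which inhibits calcification, measured 2924, 2708, 18626 and 11820.3 CPM in the chosen cells, with log2 ratios between diets of 2.67 (2.60 to 2.75) and 2.13 (2.03 to 2.22) in the Nrf2flox/flox and the Nrf2Cdh5tKO label pair. In the other fibroblasts it measured 6208, 7493, 4412 and 4868 CPM, with ratios of -0.49 and -0.62. The gene thus stood higher with diet in the chosen cells and lower in the others, though 999 of its 1832 UMIs in the 9 cells came from 1 cell, and the difference was not tested. Comp, cartilage oligomeric matrix protein, measured 52.1, 32.0, 763 and 233 CPM, with ratios of 3.86 and 2.81, against 0.00 and 1.08 in the other fibroblasts. Ctgf, a matricellular CCN protein, measured 131, 121, 1373 and 590.0 CPM, with ratios of 3.39 and 2.28, against 0.01 and 0.19. Comp is also a marker of the Cilp fibroblasts that the rule leaves out, and the 6 markers of those cells summed to 229, 241, 1118 and 388 CPM in the chosen cells and 499, 631, 472 and 513 in the others, with Cilp held low by the rule and Thbs4 at 0 in the chosen cells of all but the first library. Their part in the result was not tested. Cytl1, a cytokine-like protein of cartilage, gave 8.08 (7.57 to 8.74) and 3.62 (2.18 to 6.17), and Fmod, the collagen-binding fibromodulin, 2.24 (1.48 to 2.97) and 5.03 (3.08 to 10.97). Smoc1, a modular calcium-binding protein, gave 2.33 (1.49 to 3.12) and 4.71 (2.73 to 10.64). The remaining genes named as higher were Slc6a6, the taurine transporter (2.51 and 2.46), Cd200, an immune inhibitory ligand (2.01 and 2.07), Dkk3, a Dickkopf family protein (1.94 and 2.69), and Nr4a2, an early response nuclear receptor (2.73 and 2.97). Of the UMIs in the 9 cells, 225 of 364 for Cytl1 and 19 of 20 for Nr4a2 lay in 1 cell. After thinning to 5000 UMIs the mean ratio of Nr4a2 turned to -1.96.

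Tnfaip6, Ccl7 and Dnajb1 were among the lower genes. Tnfaip6, a hyaluronan-binding protein induced in inflammation, had 2534, 257, 4 and 37 UMIs in the chosen cells of the 4 libraries, or 1199, 633, 40.7 and 102 CPM, with log2 ratios of -4.87 (-6.76 to -3.52) and -2.61 (-3.16 to -2.12). In the other fibroblasts its ratios were -0.67 and -0.44. Ccl7, a monocyte attractant, had 1290, 123, 1 and 27 UMIs and ratios of -5.85 (-11.21 to -3.43) and -2.0 (-2.68 to -1.41), and Ptx3, a soluble pattern recognition protein, 697, 101, 9 and 4 UMIs and ratios of -1.84 and -4.33. Dnajb1, a heat shock co-chaperone, measured 675, 406, 50.8 and 105 CPM, with ratios of -3.72 and -1.93 against -1.30 and -0.39 in the others. Idi1, an enzyme of sterol synthesis, had 116, 39, 0 and 5 UMIs, a ratio of -2.68 in the second pair and no UMI in the 9 cells. Its ratios in the other fibroblasts were -1.71 and -2.39. Plac8, Procr, the endothelial protein C receptor, Iigp1, an interferon-inducible GTPase, and 6030408B16Rik were also lower, as was Cnmd, which had 351, 31, 5 and 0 UMIs. The largest cell held 118 of the 351 Cnmd UMIs of the first library. Of the genes described above, Sfrp1 was lower, with ratios of -1.08 and -1.55 against 0.55 and -0.53 in the others. Gpx3 was also lower, with -1.07 and -1.03, and its level in the other fibroblasts, given above, was lower in both pairs as well. Penk, at -0.87 and -0.03, was not called.

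**Figure D5:**
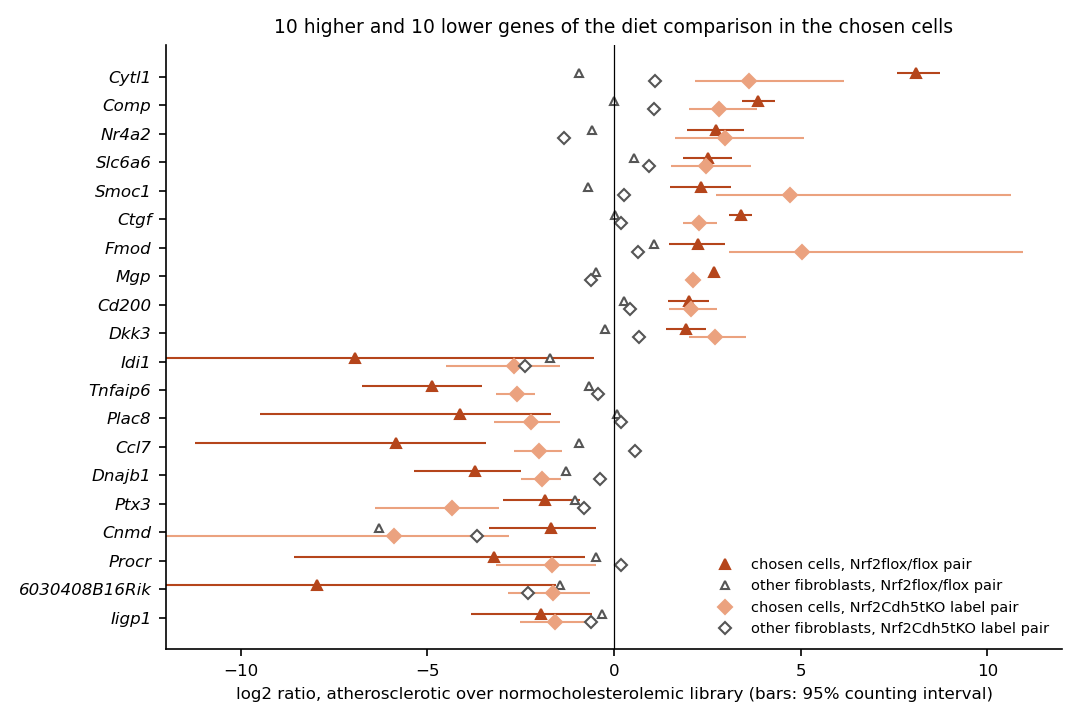
Log2 ratio of CPM between the atherosclerotic and the normocholesterolemic library for the 10 higher and 10 lower named genes, in the chosen cells (filled, with 95% counting intervals, which run off the axis where a library has no UMI) and in the other fibroblasts (open), for the Nrf2flox/flox pair (triangles) and the Nrf2Cdh5tKO label pair (diamonds). Mgp lies at 2.67 and 2.13 in the chosen cells and at -0.49 and -0.62 in the other fibroblasts, whereas Idi1 is lower in both sets of cells.

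Within the lists by role, some genes met the rule, beside 0.711% higher and 0.513% lower over all genes. Of 14 sterol synthesis and uptake genes 0 were higher and 1 lower (Idi1), with median log2 ratios of -1.29 and -1.73 in the chosen cells and -0.60 and -0.99 in the other fibroblasts, beside -0.01 in both pairs over all genes. The 16 interferon-stimulated genes gave 0 higher and 1 lower (Iigp1), with medians of -1.07 and -0.88, compared with 0.03 and 0.02 in the other fibroblasts. For these and the sterol genes, the first median in the chosen cells rests on 9 cells with 98360 UMIs. A gene near the filter of 20 UMIs can have none there, which gives a strongly negative ratio, and the part of this in the medians was not tested. Of 20 immediate early and heat shock genes 1 was higher (Nr4a2) and 1 lower (Dnajb1), with medians of -0.67 and 0.07. Among 6 Wnt genes Dkk3 was higher and Sfrp1 and Sfrp4 lower.

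Few genes followed the genotype label in both diets. The atherosclerotic pair rests on 9 chosen cells in its Nrf2flox/flox library, without which the other pair alone called many more genes. Of 3439 genes, 2 were higher in both libraries labelled Nrf2Cdh5tKO (0.0582%), Wisp2 and Tcea3, and 4 were lower (0.116%), Apod, Fetub, Nr4a2 and Eif4e, a translation initiation factor. None of the 6 was called in the other fibroblasts, where 16 were higher and 11 lower of 12131. Apod had 1351, 116, 200 and 145 UMIs, with log2 ratios of -1.16 (-1.45 to -0.89) and -2.33 (-2.66 to -2.02) in the normocholesterolemic and the atherosclerotic pair, but 478 of the 1351 and 177 of the 200 lay in 1 cell. Wisp2 had 39, 27, 1 and 23 UMIs and ratios of 1.83 (1.08 to 2.59) and 2.42 (0.03 to 8.01), and Tcea3, a transcription elongation factor, 52, 26, 1 and 30 UMIs and ratios of 1.36 (0.64 to 2.08) and 2.79 (0.44 to 8.38). None of the 6 genes was called with a gate of at least 3 UMIs, where 2 failed the filter, or after thinning, where 5 did. With the largest cell of each gene left out, 1 of the 2 higher and 0 of the 4 lower genes remained, and the mean ratio of Nr4a2 turned to 0.97 after thinning and to 0.50 with a gate of at least 3 UMIs. Of the Nrf2 gene and its targets, Nfe2l2 gave 0.04 and 1.51, and Gclm, of glutathione synthesis, 0.35 (-0.53 to 1.16) and 1.82 (-0.67 to 7.43), with 65, 16, 1 and 15 UMIs. Nqo1, a quinone reductase, had 10 UMIs in 10 cells, too few to compare at this depth.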

How the data were processed

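The deposited matrices hold UMI counts per gene and cell, made by the authors from 10x Genomics 3′ v3.1 libraries with Cell Ranger (version 6.1.2 in the submitters' processing notes) on mm10. Nothing but these counts was used. As in the study's methods, a cell needed 200 to 6000 genes and no more than 15% of UMIs from mitochondrial genes. The study set the limit of 6000 genes against possible doublets, and no other doublets were removed. Scrublet called 306 of the 14148 kept cells (2.16%), and the removal of these was an alternative. UMIs were summed over cells and divided by their total (CPM). Log2 ratios had exact binomial counting intervals and UMIs added in proportion to depth. Against the other fibroblasts, 0.5 UMI was added to the chosen cells and the same level, scaled to their depth, to the others. Between libraries a mean of 0.5 UMI was added, shared by depth. Ratios from few UMIs are thus smaller in size than the CPM beside them would give. Genes were named by the size of the smallest ratio over libraries, 25 higher and 15 lower, and up to 10 each way for diet and label. The study tested over cells, which are not replicates, so no test was run. The members and the gene lists were chosen with earlier results of these data known. A few items, among them the injected agent and one list's diet calls, are not reported here. Gene positions come from GENCODE M21. The work used scanpy 1.11.5 and scipy 1.17.1 under Python 3.11.15. The calls were also run on simulated sums with counting error only. These held no spread between cells and changed only genes with at least 5 UMIs expected in every library. They thus do not bear on genes set by single cells or passed by the filter through the chosen cells alone.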

Additional observations from a re-analysis of the deposited data

Results flagged for a closer look

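The share of fibroblasts that were chosen moved in opposite directions with diet in the 2 genotype labels. The atherosclerotic share was 0.425 times the normocholesterolemic share in Nrf2flox/flox (interval 0.192 to 0.825) and 1.66 times in the libraries labelled Nrf2Cdh5tKO (0.979 to 2.84). Seen by label, the share in the library labelled Nrf2Cdh5tKO was 0.401 times that of Nrf2flox/flox in normocholesterolemic mice (0.261 to 0.595) and 1.57 times in atherosclerotic mice (0.733 to 3.72). The difference was not tested, since each group is 1 library, and the intervals of 1.66 and 1.57 include 1. The opposite directions depend on the denominator: among the fibroblasts outside the Pi16, Cilp and Tfap2b gates the shares fell with diet under both labels, from 32.5% to 18.8% and from 30.9% to 16.9%, with ratios of 0.578 (0.260 to 1.12) and 0.549 (0.323 to 0.936), and the ratios between labels were 0.951 and 0.903.

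In the chosen cells 22 of 5065 genes differed with diet in opposite directions in the 2 genotype labels, each past its counting interval. With the label in the 2 diets 19 of 3439 genes differed so. Pim3, a kinase, gave log2 ratios of -2.82 (-8.18 to -0.37) and 3.91 (1.85 to 9.87) between diets, from 157, 1, 1 and 20 UMIs in the 4 libraries. Lpl gave 1.09 (0.86 to 1.30) and -1.48 (-1.75 to -1.22), from 1903, 484, 188 and 154 UMIs, but 146 of the 188 lay in 1 cell. With the largest cell of each library left out Lpl gave -0.69 (-1.17 to -0.25) and -1.52 (-1.82 to -1.23), lower with diet in both pairs. Of the 22 genes 11 then still met the rule, and of the 19 genes 8. Between labels, Ccl2, a monocyte attractant, gave -3.97 and 6.23, from 1239, 15, 0 and 58 UMIs. The second value depends on the fraction of a UMI added, because a library held none. These differences were not tested either.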

How the results depend on the processing

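The main limits are 1 library per group, 9 chosen cells in the atherosclerotic Nrf2flox/flox library, and a rule that depends on depth and on the Pi16 gate. Diet was compared within each genotype label and the label within each diet, and no additive model over the 4 libraries, which would leave 1 residual degree of freedom, was fitted. Settings that filter on the expected count alone, leave out the largest cell, leave out the 9-cell library from a pair, or limit the denominator were chosen after seeing the data.

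The pooled share of 4.05% became 3.3% with at least 3 gate UMIs, 5.6% with at least 1, 5.52% after thinning to 5000 UMIs, 1.81% of all kept cells and 28.2% of the fibroblasts outside the Pi16, Cilp and Tfap2b gates. With that last denominator the ratio of atherosclerotic to normocholesterolemic shares under the Nrf2Cdh5tKO label turned from 1.66 to 0.549 and the ratio of label to control in normocholesterolemic mice moved from 0.401 to 0.951.

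Against the other fibroblasts, the 27 higher and 41 lower genes became 44 higher with others that hold no UMI of the 3 genes, 12 lower with others that pass none of the gates, and 14 lower after thinning, with 2083 genes tested in place of 3747, where 12 of the 27 and 10 of the 41 remained. Against others that pass none of the gates, 20 of the 41 lower genes passed the filter and 3 of these were called. Over all 20 settings 0 of the 27 and 1 of the 41 remained in each. They became 12 and 21 with 20 UMIs in every library, 45 and 113 without a filter, and 9 and 67 without the largest cell, where the second count rises by construction. With at least 5 UMIs expected from the other fibroblasts in every library 11 were higher. With 1 library left out in turn, 30 to 63 were higher and 52 to 83 lower. Aldh1a3 and Lrrn4cl turned to median log2 ratios of 0.027 and 0.42 against fibroblasts that pass no gate.

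For diet, 36 higher and 26 lower genes became 13 and 7 after thinning (2802 genes tested in place of 5065) and 20 and 41 without the largest cell. Leaving out 1 cell tends to lower a level more in the library with 9 chosen cells, so the rise to 41 says little of the lower genes. Taken as a mean over cells, 97 were lower. Without the atherosclerotic Nrf2flox/flox library the counts were 185 and 224 of 5075 genes (3.65% and 4.41%), where only 1 pair has to meet the rule. For the genotype label, the count of 2 higher genes became 1 with at least 1 gate UMI (a different gene), 0 after thinning or with 50 UMIs, 9 as a mean over cells and 318 without that library. The count of 4 lower genes became 2 with 50 UMIs, 10 without a filter, 1 without the largest cell (a different gene) and 254 without that library, where 8638 genes were tested in place of 3439. The 318 and 254 genes were 3.68% and 2.94% of those tested, with 1 pair left to meet the rule. Nr4a2 turned to a mean log2 ratio of -1.96 for diet after thinning, and of 0.50 with at least 3 gate UMIs and 0.97 after thinning for the label. Apart from choices of construction, such as fewer genes or libraries, the cause was not tested. Of the values for single genes and single libraries, 30 kept their direction but fell short of 2-fold, 13 of them against fibroblasts that pass no gate, and 13 shares of single libraries moved. The other 105 values of the main results and 1144 of single genes kept direction and side.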

Other observations

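Cnmd, chondromodulin, a secreted protein of cartilage and tendon that restrains vessel growth, was found in 22 of the 256 chosen cells and was chosen for mention after its values were seen. It measured 166, 76.3, 50.8 and 0 CPM in the chosen cells of the 4 libraries, against 1.6, 0.345, 0 and 0 CPM in the other fibroblasts. It lay in 19, 2, 1 and 0 cells, and 90.4% of its 387 UMIs were in 10 cells. All 22 cells also held Sfrp1, 20 held Bmper and 14 Fgf10, at a median depth of 15218 UMIs. The cartilage genes Acan and Col2a1 were at 0 in the chosen cells of all 4 libraries.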
